A study of Xenopus laevis with 4 samples.

Results

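Early blood and endothelial regulators were followed in RNA-seq libraries of ventral tissue from gastrulating Xenopus laevis embryos. The set comprised the transcription factor genes tal1, lmo2, fli1, runx1 and etv2, each with its .L and .S copy (homeologs, since the frog is allotetraploid), and it was chosen by gene symbol. Of these 10 genes, 2 had a row among the 21531 genes of the table, namely lmo2.L and runx1.S. The other 8 genes, tal1.L, tal1.S, lmo2.S, fli1.L, fli1.S, runx1.L, etv2.L and etv2.S, had no row in the table used and were not analysed here. The sox8 CRISPR group held 2 libraries from embryos injected with mRNA of Cas7-11, an enzyme that cuts RNA at sites set by a guide, together with guides against sox8. The control group held 2 libraries from embryos that, per the labels, received Cas7-11 mRNA without guides. Injections were made into the ventral side of the cleaving embryo and ventral mesoderm was dissected during gastrulation, so every value is a mean over the injected and any uninjected cells of an explant, and the knockdown acts on RNA without changing the gene. The labels name a separate embryo for each library. In bulk tissue, fewer cells of a type and less RNA per cell cannot be told apart.

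The libraries held between 18189895 and 24108577 reads on genes. The study took the sequences of both sox8.L and sox8.S for guide design. The gene sox8.L had 26.9 and 25.4 normalized counts in the sox8 CRISPR libraries, against 508 and 927 in the controls. Its homeolog sox8.S had 134 and 0 in the sox8 CRISPR libraries, against 14.1 and 43.7 in the controls, and so was not lower in sox8 CRISPR replicate 1. The ventral label of the controls fitted ventx1.S and chrd.1.L. The gene ventx1.S, a homeobox gene of ventral mesoderm, had 26.2 and 82.2 normalized counts in the sox8 CRISPR libraries and 3031 and 3341 in the controls. The gene chrd.1.L, which encodes the BMP antagonist Chordin of the dorsal organizer, had 8702 and 917 in the sox8 CRISPR libraries and 0 in both controls. The organizer markers chrd.2.L, otx2.L and admp.S were also at 0 in both controls. Other organizer markers were present in the controls, with frzb.S at 286 and 853 normalized counts, foxa4.L at 245 and 361 and not.L at 222 and 55.6. The authors removed genes with a low mean, so chrd.1.L, at 0 in both controls, was kept through the sox8 CRISPR libraries alone. The number of genes at 0 stood apart in sox8 CRISPR replicate 2, with 3862, against 667 in sox8 CRISPR replicate 1 and 1290 and 989 in the controls.

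In vertebrate embryos blood and endothelium arise from common mesodermal territories, and in Xenopus the first blood forms in the ventral blood island, from mesoderm that depends on BMP signalling. Tal1 is a basic helix-loop-helix factor that binds DNA together with E proteins. Lmo2 has LIM domains and binds no DNA itself. It joins Tal1 and its E protein to GATA factors through the adaptor Ldb1. Fli1 and Etv2 are ETS factors that act early in the endothelial and blood programme, and Runx1, which pairs with Cbfb, is required for blood stem cells in mice. In Xenopus these genes are known mostly from the ventral blood island and the vessels of stages after gastrulation.

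Transcripts of the LIM-only gene lmo2.L were detected in a single library. The gene lies on chromosome 4L of the v10.1 assembly, from 11378170 to 11383324. It had 69 reads in sox8 CRISPR replicate 1, equal to 43.1 normalized counts with a 95% exact Poisson interval of 33.5 to 54.5. There were 0 reads in sox8 CRISPR replicate 2 and 0 in each control library. A count of 0 allows up to 3 reads, which corresponds to 3.63 normalized counts in sox8 CRISPR replicate 2, 4.68 in control replicate 1 and 2.38 in control replicate 2. These intervals and limits cover counting error only, because PCR copies without molecular identifiers are not independent molecules. The groups therefore overlapped at 0, and replicates of the sox8 CRISPR group differed more from each other than replicate 2 differed from the controls. The mean was 21.6 ± 30.5 normalized counts in sox8 CRISPR and 0 in control (SD, n = 2 each), at least 4.60-fold higher against the limit of 3 reads in control replicate 1, a bound that sox8 CRISPR replicate 1 alone carries.

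The gene runx1.S was also found almost wholly in 1 library, and in the other sox8 CRISPR embryo. Sox8 CRISPR replicate 2 held 107 reads, equal to 129 normalized counts with an exact Poisson interval of 106 to 156. There were 0 reads in sox8 CRISPR replicate 1, where up to 1.87 normalized counts could have been missed. Control replicate 1 held 2 reads, or 3.12 normalized counts, and control replicate 2 held 0. The mean was 64.7 ± 91.4 normalized counts in sox8 CRISPR and 1.56 ± 2.21 in control (SD, n = 2 each). The reads summed to 107 in sox8 CRISPR and 2 in control, and after scaling by the size of the libraries the ratio was 41.8 with an exact 95% interval of 11.3 to 350 for counting error, which leaves out the difference between the sox8 CRISPR libraries. As for lmo2.L, 1 sox8 CRISPR library was high, the other was at 0, and the groups overlapped.

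**Figure D1:**
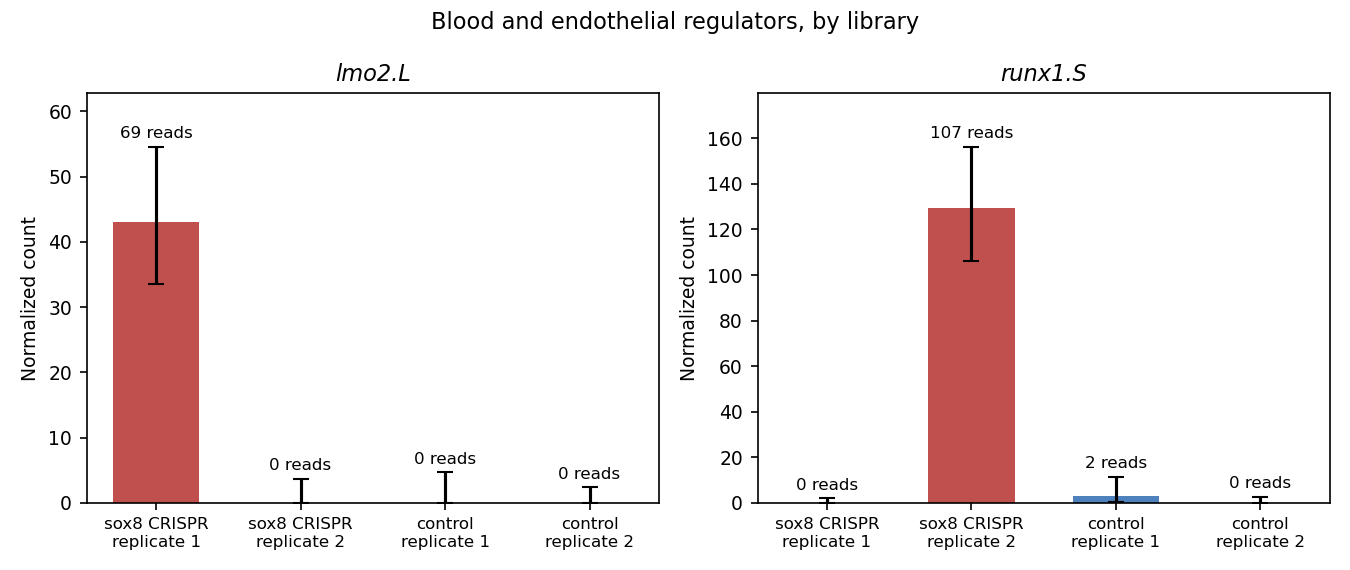
Normalized counts of lmo2.L (left) and runx1.S (right) in each of the 4 libraries, with the reads behind each bar above it. Error bars are 95% exact Poisson intervals for the counting error, drawn up to 3 reads where the count was 0. Each gene stands out in a different sox8 CRISPR library, lmo2.L with 69 reads in replicate 1 and runx1.S with 107 reads in replicate 2.

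Neither gene differed between the groups beyond the spread of the replicates. Differential expression was tested with limma on log2(normalized count + 1), and a gene was called at a Benjamini-Hochberg adjusted p under 0.05 together with an absolute log2 fold change over 0.58. Adding 1 before taking logs makes the change of low-count genes look smaller than it is. For lmo2.L the log2 fold change was 2.73 with a standard error of 2.50 (limma adjusted p = 0.864). For runx1.S it was 2.49 with a standard error of 2.50 (limma adjusted p = 0.873). Of these 2 genes 0 were called and 0 reached an unadjusted p of 0.05, while 0.334% of all genes were called. On the recovered reads edgeR called 0 of them and had 0 at an unadjusted p under 0.05. DESeq2 called 0 and gave runx1.S an unadjusted p of 0.0266 (adjusted p = 0.334, between 0.242 and 0.999 over 13 alternatives). For lmo2.L, DESeq2 returned no adjusted p. Both genes passed the fold threshold alone, as did 67.3% of all genes, and 29.7% passed it upwards. Without sox8 CRISPR replicate 1 all remaining libraries were at 0 for lmo2.L, and without sox8 CRISPR replicate 2 the log2 fold change of runx1.S was -1.02.

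The filter on low values bears directly on both genes. The authors removed genes with a low mean across the libraries, and the lowest mean of recovered reads in the table was 5. The 4 libraries averaged 17.25 reads for lmo2.L and 27.25 for runx1.S, all or nearly all from 1 sox8 CRISPR library, and the control libraries alone held 0 and 2 reads. A gene with so few control reads could enter the table only through the sox8 CRISPR libraries, so its direction was set by the filter and is given as a description. Whether the filter removed the 8 genes without a row was not tested.

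The pattern of lmo2.L and runx1.S was shared by many genes. Over all genes, 492 had more than 3 reads in sox8 CRISPR replicate 1 and 3 or fewer in each other library (2.29%), and lmo2.L is one of them. For sox8 CRISPR replicate 2 there were 227 such genes (1.05%), runx1.S among them. For the controls there were 46 in replicate 1 and 172 in replicate 2. With 50 reads or more in that single library, as for lmo2.L and runx1.S, there were 123 and 63 genes in sox8 CRISPR replicates 1 and 2, and 3 and 16 in control replicates 1 and 2. Sox8 CRISPR replicate 1 had the most reads, and the part of depth in these counts was not tested.

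**Figure D2:**
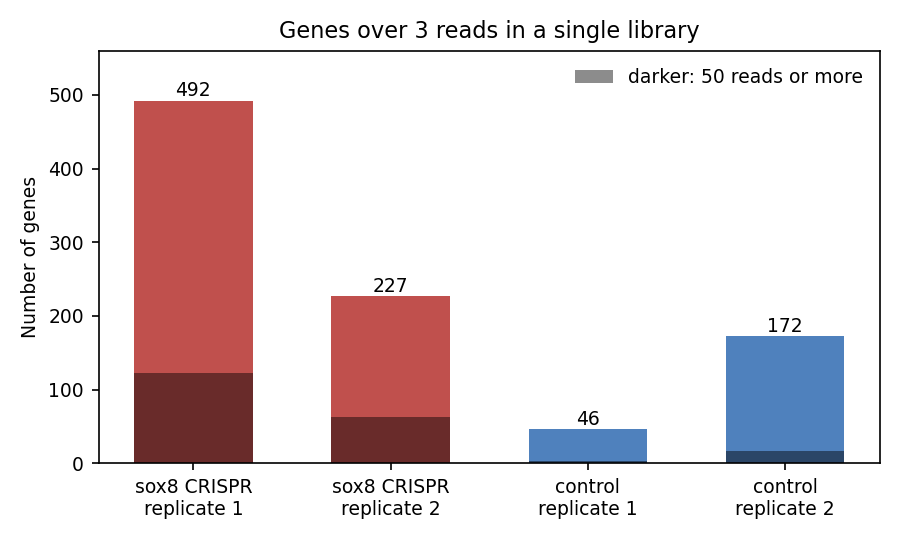
Number of genes (y axis) with more than 3 reads in 1 library and 3 or fewer in the other 3, for each library. The darker part of each bar counts genes with 50 reads or more. Sox8 CRISPR replicates 1 and 2 had 492 and 227 such genes, among them lmo2.L and runx1.S, and the controls had 46 and 172.

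Among 35 genes with established roles in blood or endothelial cells, 6 were likewise over 3 reads only in sox8 CRISPR replicate 1, the library that held lmo2.L. This is 17.1% of the 35, against 2.29% of all genes, a share not matched for expression level. Many of the 35 had low counts, and the grouping was made after the values were seen. No test was made, and no enrichment is read from the 2 shares. The 6 genes were myb.S, a regulator of blood progenitors, spi1.L, which encodes the myeloid ETS factor PU.1, cebpe.S, a granulocyte factor, kdr.L, a VEGF receptor of endothelium, its co-receptor nrp1.S, and apln.S, the ligand of the apelin receptor. They had 29, 26, 24, 21, 62 and 31 reads in sox8 CRISPR replicate 1, given in that order, and at most 1 read in any other library. With so few control reads, the filter set their direction as well. Conversely, cebpa.L had its reads in control replicate 2 (57, against 3 in sox8 CRISPR replicate 1) and sox7.L in control replicate 1 (37, against 3 in control replicate 2). Sox8 CRISPR replicate 2, which held the runx1.S reads, was at 0 for 17 of these 35 genes. The other libraries were at 0 for 3 in sox8 CRISPR replicate 1 and for 8 and 6 in the controls.

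The proteins that Lmo2, Tal1 and Runx1 work with were represented by 20 genes, of which 2 were called, against 0.334% of all genes. Both were lower in sox8 CRISPR. These were the homeologs of gata2, a GATA factor of early blood and ventral mesoderm that Lmo2 complexes recruit. For gata2.L there were 6.87 and 0 normalized counts in the sox8 CRISPR libraries, against 361 and 1751 in the controls. Its log2 fold change was -8.15 with a standard error of 1.49 (limma adjusted p = 0.0177). For gata2.S there were 0 in both sox8 CRISPR libraries, while control embryos had 459 and 1794 (limma adjusted p = 6.53e-03). With a limit of 3 reads set per library, sox8 CRISPR was at least 311-fold lower. Both gata2 genes, at or near 0 in sox8 CRISPR, could enter the table only through the controls. Their direction was therefore set by the filter, and their folds and p-values are given as a description. Both sox8 CRISPR libraries lay below both controls for either homeolog. The call held for both genes in 8 of 13 alternatives, with adjusted p between 5.25e-10 and 0.997 for gata2.L and between 8.48e-11 and 0.997 for gata2.S, and it was lost without the intensity trend (adjusted p = 0.424 for both) and without any 1 of the 4 libraries (0.239 to 0.997).

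The adaptor Ldb1, which holds the complex together, was measured at high counts in every library, and the groups overlapped. For ldb1.L there were 3043 and 5227 normalized counts in the sox8 CRISPR libraries, against 3526 and 7597 in the controls (log2 fold change -0.38, limma adjusted p = 0.937). For ldb1.S there were 1783 and 4404 in sox8 CRISPR and 3239 and 7975 in control (log2 fold change -0.86, limma adjusted p = 0.867). The E protein genes, which encode the DNA-binding partners of Tal1, were also present in all 4 libraries. The log2 fold changes were -0.02 for tcf3.L, -0.84 for tcf3.S, 0.45 for tcf12.L and 0.07 for tcf12.S. The log2 fold change of tcf4.L, at 29.98 and 21.8 normalized counts in sox8 CRISPR and 9.37 and 1.59 in control, was 2.36 (limma adjusted p = 0.855). The GATA cofactor gene zfpm1.S had 49.97 and 70.1 normalized counts in sox8 CRISPR, against 12.5 and 2.38 in control (limma adjusted p = 0.788). With so few control reads, tcf4.L and zfpm1.S needed sox8 CRISPR reads to pass the filter. The filter favoured a rise in these genes without fixing it, so their direction is given as a description. The homeologs tcf4.S and zfpm1.L overlapped between the groups, with log2 fold changes of -0.49 and -0.28. Over the 20 partner genes the median log2 fold change was -0.15, against -0.16 over all genes, and it turned positive with quantile normalization (0.21), edgeR (0.17) and DESeq2 (0.12). Both sox8 CRISPR libraries lay above both controls for 4 of the 20 and below them for 4, where 17.0% of all genes lay above and 19.1% below. Among these, tcf4.L and zfpm1.S lay above, a direction that the filter favoured, and the gata2 genes lay below, with a direction set by the filter.

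**Figure D3:**
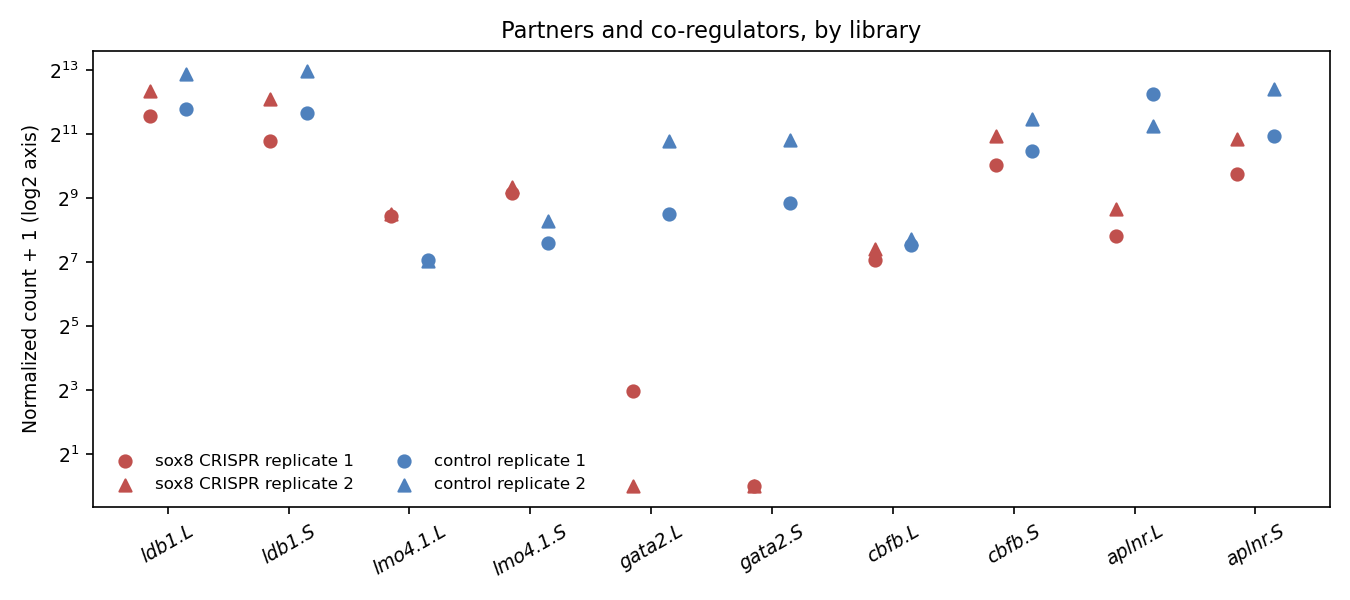
Normalized count plus 1, on a log2 axis, of partner genes and of the apelin receptor genes in each library. Red symbols are sox8 CRISPR and blue symbols control, with circles for replicate 1 and triangles for replicate 2. The gata2 homeologs are at 0 to 6.87 in sox8 CRISPR and at 361 to 1794 in control, while ldb1 and cbfb.S overlap between the groups.

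The paralogs of lmo2 were mostly found in several libraries. In a list matched by symbol, which took lmo genes with lmo7, fhl genes and ldb genes with ldb3, 16 genes were measured. Of these, 0 were called by limma, edgeR or DESeq2. An unadjusted limma p under 0.05 was found in 1 of the 16. Of all 21531 genes these fits called 72, 109 and 423, and 1463 had an unadjusted limma p under 0.05. The list includes lmo4, whose product also binds Ldb1, and whose near copies may exchange reads. The copy lmo4.1.L had 346 and 366 normalized counts in sox8 CRISPR, against 133 and 131 in control (log2 fold change 1.43 with a standard error of 0.84, limma adjusted p = 0.798). For lmo4.1.S there were 567 and 650 in sox8 CRISPR and 192 and 312 in control (log2 fold change 1.31 with a standard error of 0.76, limma adjusted p = 0.795). In both, the sox8 CRISPR libraries lay above the controls by more than the replicates differed, and neither passed the test across genes. The second copy went the other way in lmo4.2.S, with 94.9 and 0 in sox8 CRISPR, against 122 and 313 in control (limma adjusted p = 0.668). Its log2 fold change was -4.33, and -1.03 once sox8 CRISPR replicate 2 was left out. Its homeolog lmo4.2.L had 460 and 778 in sox8 CRISPR, against 1220 and 321 in control, and overlapped. For lmo3.L there were 21.2 and 172 in sox8 CRISPR, against 3.12 and 29.4 in control (log2 fold change 2.47, limma adjusted p = 0.830, and 0.99 to 3.95 on the log2 scale with 1 library left out). For lmo3.S there were 19.4 and 2.42 in sox8 CRISPR, against 0 and 0.795 in control, again with most reads in sox8 CRISPR replicate 1. The gene lmo3.S could enter the table only through sox8 CRISPR, so the filter set its direction.

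The partner of Runx1 was detected in all 4 libraries. The cbfb genes encode the subunit that stabilizes Runx proteins on DNA. For cbfb.L there were 134 and 169 normalized counts in sox8 CRISPR, against 184 and 210 in control (log2 fold change -0.38, limma adjusted p = 0.943). For cbfb.S there were 1043 and 1950 in sox8 CRISPR and 1413 and 2844 in control (log2 fold change -0.49, limma adjusted p = 0.90). Both sox8 CRISPR libraries lay below both controls for cbfb.L, the groups overlapped for cbfb.S, and neither passed the test.

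Of the ETS family, to which Fli1 and Etv2 belong, 24 genes were measured and 0 were called by limma, edgeR or DESeq2. An unadjusted limma p under 0.05 was reached by 0 of the 24 and by 1463 of all 21531 genes. The named members were ets1.L, a regulator of endothelium and neural crest, and erf.L, a repressor. For ets1.L there were 111 and 0 normalized counts in sox8 CRISPR, against 35.9 and 78.7 in control (log2 fold change -2.36, limma adjusted p = 0.859). Its sign rested on sox8 CRISPR replicate 2, without which the log2 fold change was 1.04. For erf.L there were 302 and 144 in sox8 CRISPR, against 292 and 794 in control (log2 fold change -1.20, limma adjusted p = 0.824). Leaving out control replicate 1 or 2 gave -1.92 or -0.48. The median of the family was -0.71, and -0.18 without sox8 CRISPR replicate 2, against 0.09 over all genes in that fit.

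Of 25 endothelial genes, 1 was called, against 0.334% of all genes. This was aplnr.L, which encodes the apelin receptor, a G-protein-coupled receptor of mesoderm and vessel precursors. It had 225 and 407 normalized counts in the sox8 CRISPR libraries, against 4872 and 2430 in the controls. Its log2 fold change was -3.50 with a standard error of 0.73 (limma adjusted p = 0.0440). The call was kept in 4 of 13 alternatives, with adjusted p between 3.77e-04 and 0.997, and it was lost with TMM scaling (0.0543), with edgeR (0.0708) and without any 1 of the 4 libraries (0.249 to 0.997). Its homeolog aplnr.S had 863 and 1850 in sox8 CRISPR and 1952 and 5422 in control (log2 fold change -1.36, limma adjusted p = 0.791). For mef2c.S, a MADS-box gene of heart and vessels, there were 29.4 and 0 in sox8 CRISPR, against 133 and 88.2 in control (log2 fold change -4.31, limma adjusted p = 0.683). That value was -1.85 with sox8 CRISPR replicate 2 left out, -6.77 with sox8 CRISPR replicate 1 left out and -2.76 with edgeR. Both sox8 CRISPR libraries lay below both controls for 12 of the 25 genes, where 19.1% of all genes did, and above them for 1. Some of the 12 could enter the table only through the controls, so the filter set their direction. Examples are sox7.L and sox7.S, at 0 in both sox8 CRISPR libraries, and flt4.S, at 0 and 8.46 normalized counts there. The median log2 fold change was -1.63, and it was -0.18 without sox8 CRISPR replicate 2, in which 12 of the 25 genes were at 0. With sox8 CRISPR replicate 1 alone, 12 genes lay below both controls and 10 above, where 32.2% of all genes lay below and 37.9% above.

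Of 10 blood cell genes, 0 were called by limma or edgeR. Over all 21531 genes limma called 72 and edgeR 109. An unadjusted limma p under 0.05 was found in 1463 of all genes and in 1 of the 10. This was cebpa.S, which encodes C/EBP alpha, a factor of myeloid and liver cells. It had 17.5 and 2.42 normalized counts in sox8 CRISPR, against 436 and 200 in control (log2 fold change -5.22 with a standard error of 1.41, limma adjusted p = 0.187). DESeq2 called it (adjusted p = 1.11e-03, and up to 0.997 over 13 alternatives). The embryonic globin gene hbz.L had 325 and 157 in sox8 CRISPR, against 517 and 159 in control (log2 fold change -0.34, limma adjusted p = 0.949), and its groups overlapped.

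**Figure D4:**
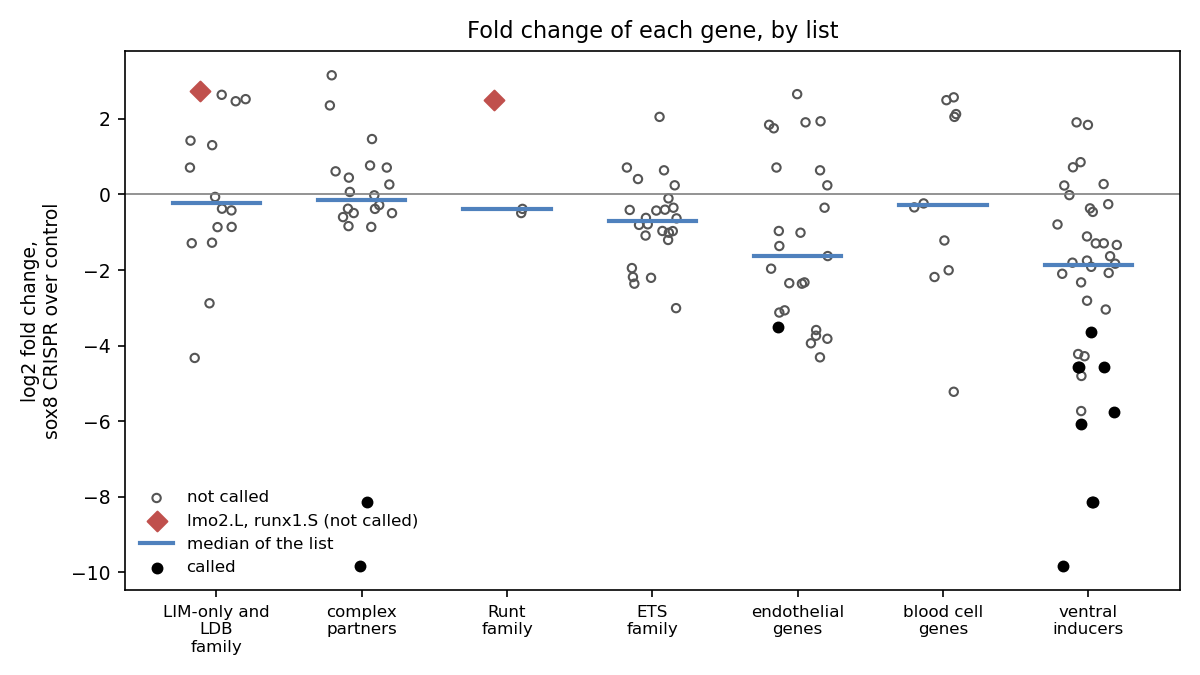
Log2 fold change of sox8 CRISPR over control (y axis) for each gene of 7 lists (x axis). Filled black points were called by limma, open points were not, diamonds are lmo2.L and runx1.S at 2.73 and 2.49, and lines are list medians. The 2 called partner genes at -8.15 and -9.83 are the gata2 homeologs, which also stand in the list of ventral inducers.

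The largest number of calls among the lists tied to blood formation came from inducers of ventral mesoderm. Of 38 genes for BMP, Wnt and FGF ligands, BMP receptors, Smads, the homeobox factors they induce and gata2, 9 were called, all lower in sox8 CRISPR, where 0.334% of all genes were called in either direction. Both sox8 CRISPR libraries lay below both controls for 26 of them and above for 0, where 19.1% of all genes lay below and 17.0% above. The median log2 fold change was -1.87, and it was -2.17 without sox8 CRISPR replicate 2. The study had already reported lower ventx and bmp expression in these libraries, and this list was chosen with earlier results known. Its share of calls is therefore no independent test. The gata2 homeologs also stand among the partners and entered the table only through the controls. The same holds for bmp7.1.S, msx1.S and bmpr2.L, which are among the 26. They had 2.50 and 0, 2.50 and 7.25, and 0 and 4.83 normalized counts in the sox8 CRISPR libraries. The filter set the direction of all these genes. Besides gata2, the called genes were bmp4.S, ventx1.L, ventx1.S, ventx1.2.L, ventx1.2.S, ventx3.2.L and ventx3.2.S. The largest fall among these, in ventx3.2.L, was to 34.4 and 2.42 normalized counts in sox8 CRISPR, against 4195 and 2298 in control (log2 fold change -8.14, limma adjusted p = 1.04e-03). For ventx1.L there were 23.7 and 26.6 in sox8 CRISPR and 1812 and 1118 in control (log2 fold change -5.77, limma adjusted p = 4.91e-03). For ventx1.2.L and ventx1.2.S the log2 fold changes were -4.57 and -4.56, and for ventx3.2.S -4.56, where reads of near-identical ventx copies may be split between them. The ventx factors repress dorsal genes, and bmp4.S, with a log2 fold change of -3.63, encodes the ligand upstream of them. The call was kept in 6 of 13 alternatives for bmp4.S and in 8 of 13 for each of the ventx genes, and it was lost for all of them without the intensity trend and without any 1 of the 4 libraries. The bmp4.S call was also lost with edgeR (adjusted p = 0.0527) and with a replicate block (0.0591).

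Among markers of other tissues, those of the organizer had the most calls. Of 17 organizer genes 8 were called, all higher in sox8 CRISPR, where 0.334% of all genes were called in either direction. The study had already reported higher gsc, not and chrd in these libraries, so this share is no independent test. The gsc and not genes were not called (limma adjusted p between 0.0580 and 0.142). The called organizer genes were foxa4.L and foxa4.S, frzb.L, admp.L, nog.L and the chordin genes chrd.2.L, chrd.1.S and chrd.1.L. Of the 17 genes, 15 were higher and 2 lower, and the 2 lower ones were homeologs of called genes. For frzb.S there were 111 and 424 normalized counts in sox8 CRISPR, against 286 and 853 in control (log2 fold change -1.18). The low-count nog.S had a log2 fold change of -2.02. Both overlapped between the groups and were not called. The call of admp.L held in 6 of 13 alternatives and was lost with TMM scaling (adjusted p = 0.0611) and with a pseudocount of 0.5 (0.0859). The organizer list summed to 84109 and 11458 normalized counts in sox8 CRISPR, against 843 and 1385 in control. In both controls chrd.1.L, chrd.2.L, otx2.L and admp.S were at 0. These genes, and chrd.1.S and nog.L at 0 to 7.95 there, could enter the table only through sox8 CRISPR. The filter therefore set their direction. Of 14 neural genes 1 was called, zic2.S, higher in sox8 CRISPR by a log2 fold change of 4.90 (limma adjusted p = 0.0273), and the list summed to 24279 and 69062 in sox8 CRISPR and 38768 and 13730 in control. Most of that sum came from gmnn.L and gmnn.S, which encode the replication regulator Geminin, and the other 12 genes summed to 8296 and 4914 in sox8 CRISPR and 1729 and 2860 in control, a sum chosen after the values were seen. None was called by limma among 14 paraxial and muscle genes, 13 epidermis genes, 19 endoderm genes or 13 neural crest genes. In that order, 8, 2, 6 and 4 had an unadjusted p under 0.05, as did 1463 of all 21531 genes. EdgeR called 0, 0, 1 and 2 genes of these lists and 109 of all genes. DESeq2 called 5, 2, 2 and 4 of them and 423 of all genes. The 2 largest changes per list were taken among genes with a mean high enough to be named. For muscle the log2 fold changes were 4.12 in myod1.L and 3.07 in myf5.S. For epidermis they were -6.83 in dlx3.S and -4.88 in dlx5.S. For endoderm they were -4.64 in gata4.S and 4.77 in a2m.S, and for neural crest -7.04 in sox9.S and 6.61 in twist1.L. The muscle pair rose, but 10 of the 14 muscle genes were lower and 4 higher, with a list median of -1.61. The epidermis pair fell, while 7 of the 13 epidermis genes were higher and 6 lower, with a list median of 0.16. DESeq2 called all genes named for these lists except gata4.S. No fit called gata4.S, whose value was -2.84 without sox8 CRISPR replicate 2. EdgeR called a2m.S, sox9.S and twist1.L. With few reads in 1 group, dlx3.S, gata4.S and sox9.S could enter the table only through the controls, and twist1.L only through sox8 CRISPR. The organizer sum, the neural crest sum and the neural sum without gmnn were highest in sox8 CRISPR replicate 1, which held the lmo2.L reads. The full neural, muscle and endoderm sums were highest in sox8 CRISPR replicate 2, which held the runx1.S reads. The muscle sum was 54377 there and 52577 in control replicate 1. Of the endoderm sum of 73464 in sox8 CRISPR replicate 2, vegt.L and vegt.S made up 53056 and 18633. In that library 11 of the 19 endoderm genes were at 0. The epidermis sum was highest in control replicate 1. The part of these tissues in the values of lmo2.L, runx1.S and gata2 was not tested.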

How the data were processed

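RNA-seq libraries (Smart-seq2, without molecular identifiers) were analysed from 2 sox8 CRISPR and 2 control explants, and every deposited column with values was used. The authors trimmed reads (cutadapt 4.4), removed rRNA reads, aligned the rest to X. laevis v10.1 (HISAT2 2.2.1), counted reads per gene (featureCounts 2.0.6), removed genes with a low mean count and divided by DESeq2 size factors. The deposited values are this signal, normalized counts per gene. Handling of strand and of reads shared by homeologs is not given in the sources used here, so near-identical homeologs can exchange reads. Dividing by the value of 1 read (0.625 to 1.56) returned whole reads for 100% of values (tolerance 0.001 reads). Gene positions came from RefSeq on v10.1, in which 92.1% of symbols matched and runx1.S did not.

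The test was limma 3.58.1 (R 4.3.3, two-sided, with an intensity trend), run on log2(normalized count + 1) with Benjamini-Hochberg adjustment over 21531 genes. Alternatives were pseudocounts of 0.5 and 5, a mean of 10 or more, no trend, TMM, quantile normalization, edgeR 4.0.16 and DESeq2 1.42.0 on recovered reads, a replicate block, summed homeologs, the fold threshold alone and each library left out. The fits were tested on simulated data, in which known folds were given to genes with a mean of 50 or more reads. The mean reads of lmo2.L and runx1.S were lower, so the simulation does not bear on them. Genes named are lmo2.L and runx1.S, all called list genes and the 2 largest changes per list among means of 50 or more. Further genes, such as ldb1, lmo4.1 and the genes found in 1 library, were chosen after their values were seen. Genes of nearest pattern were to be named only for means of 50 or more, which neither lmo2.L nor runx1.S reached. The genes and lists were chosen with earlier results of these data known.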

Additional observations from a re-analysis of the deposited data

How the results depend on the processing

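The number of called genes depended on the processing and lmo2.L and runx1.S were not called in any fit with a test. Over all genes, 72 were called, against 153 with a pseudocount of 5, 199 with quantile normalization, 109 with edgeR, 423 with DESeq2 and 14493 by the fold threshold alone, which 2 of the 2 genes lmo2.L and runx1.S passed. Without the intensity trend the count was 0 (unadjusted p under 0.05 in 1450 genes), and 0 without any 1 library (510 to 3972 at an unadjusted p under 0.05), where fewer degrees of freedom remain. The calls were split into 31 higher and 41 lower, and into 114 and 85 with quantile normalization, where the all-gene median of log2 fold changes was -0.02 instead of -0.16. With the replicate block 86 genes were called. Of the named genes, aplnr.L (adjusted p = 0.0852) and bmp4.S (0.0591) lost the call and myod1.L gained it (0.0137). The shared numbers pair no embryos by the labels, and the deviations of same-numbered libraries correlated at -0.22 across genes. Leaving out 1 library at a time gave log2 fold changes of 0 to 5.46 for lmo2.L, -1.02 to 6.004 for runx1.S, -5.76 to 1.04 for ets1.L, -1.19 to 0.51 for hbz.L and -0.995 to 0.0130 for cbfb.S, and edgeR gave 0.0446 for ets1.L. These 5 were the only named genes of 39 whose direction changed, or for lmo2.L fell to 0, in any of 13 alternatives. By counting error alone, up to 3 reads of lmo2.L or runx1.S could have been missed in each library at 0. Losses of other kinds are not covered by that limit. Sox8 CRISPR replicate 2 had 3862 genes at 0 with 18427818 reads on genes, against 1290 with 18189895 reads in control replicate 1.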
